A study of Homo sapiens with 42 samples.

Results

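The BCL2 family decides at the mitochondrion whether a stressed cell lives, and 10 of its genes were followed here, out of 28266 genes in the count table. They were chosen by name. The 5 survival genes are BCL2, BCL2L1 (which encodes BCL-XL), BCL2L2 (BCL-W), MCL1 and BCL2A1 (BFL-1). The 3 BH3-only genes are BCL2L11 (BIM), PMAIP1 (NOXA) and BBC3 (PUMA), and the 2 effector genes are BAX and BAK1. All 10 were rows of the table and all 10 passed the filter on low counts.

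RNA came from IMR90, an established strain of human lung fibroblasts, and from IMR90 ER:RAS, the same cells with an oestrogen receptor fusion of oncogenic RAS, brought in by a retrovirus, that 4-hydroxytamoxifen (4OHT) switches on. ER:RAS cells were given 100 nM 4OHT, which brings on oncogene-induced senescence (OIS), or DMSO. IMR90 cells were given 50 µg/ml bleomycin for 24 h, a DNA-damaging drug that also brings on senescence, or DMSO. After 7 days, 1 µg/ml doxycycline switched on a control shRNA, COPB2 shRNA #1 or COPB2 shRNA #2, and RNA was taken 72 h later, at day 10. COPB2 encodes a coat subunit of COPI vesicles. Each of the 6 ER:RAS groups had 3 libraries and each of the 6 IMR90 groups had 4, so that there were 12 groups and 42 libraries. All cells carried an shRNA vector, received doxycycline and grew in 10% serum, and the labels give the genotype of all as WT. Each senescence model was made in 1 of the 2 cell lines only, so that model and line cannot be told apart. The labels do not say whether replicates were separate cultures, and p-values measure only the spread between these libraries. The legend of the study's figure on gene sets after COPB2 depletion counts replicates as independent experiments. It gives n = 3 for both senescence models, whereas the IMR90 groups here had 4 libraries each.

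Survival proteins of this family sit on the outer mitochondrial membrane and hold BAX and BAK in check. BH3-only proteins are made or released under stress and occupy the groove of the survival proteins, each with its own preferences: NOXA binds MCL1 and BFL-1, whereas BIM and PUMA bind all survival members. Freed BAX and BAK open the membrane, and cytochrome c then starts the caspase cascade. Senescent fibroblasts are known for their resistance to apoptosis, and drugs that occupy the groove of BCL2, BCL-XL and BCL-W kill several kinds of senescent cell. The question asked here was how transcripts of the survival and death genes stood to each other in each senescence model and after COPB2 shRNA.

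The genes lie on 8 chromosomes (RefSeq, GRCh38.p14). BCL2 is at chr18:63123346-63320090, BCL2L1 at chr20:31664452-31723963, MCL1 at chr1:150574558-150579610, BCL2A1 at chr15:79960892-79971196, BBC3 at chr19:47220824-47232860 and BAK1 at chr6:33572552-33580276, all on the minus strand. BCL2L2 at chr14:23306833-23311751, BCL2L11 at chr2:111120914-111168445, PMAIP1 at chr18:59899996-59904305 and BAX at chr19:48954875-48961798 are on the plus strand. Exons of BCL2L2 are shared with the read-through gene BCL2L2-PABPN1 on the same strand, and those of MCL1 touch ADAMTSL4-AS1, so that the split of reads there is uncertain. BCL2L1, BCL2L2, MCL1, BCL2L11, BBC3 and BAK1 also overlap exons of a gene on the opposite strand.

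Promoters of 8 of the 10 genes were in the RefSeq table, from 250 bases before to 50 bases after a transcript start. Those of BCL2 and BCL2L11, which were lower in both senescence models, of BCL2A1, which had the widest range of levels, and of PMAIP1 are printed from the coding strand. Capitals mark matches, on either strand, to an ATF4 composite element, a FOXO element, a GC box or the core of a cAMP response element (CRE), whose letters follow.
BCL2A1, chr15:79971147-79971446, minus strand: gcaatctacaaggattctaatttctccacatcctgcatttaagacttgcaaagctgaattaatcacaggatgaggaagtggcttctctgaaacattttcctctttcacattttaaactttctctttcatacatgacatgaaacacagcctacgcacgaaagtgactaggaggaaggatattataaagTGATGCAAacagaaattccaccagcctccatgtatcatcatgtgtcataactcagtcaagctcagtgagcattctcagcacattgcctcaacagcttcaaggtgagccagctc
BCL2L11, chr2:111120664-111120963, plus strand: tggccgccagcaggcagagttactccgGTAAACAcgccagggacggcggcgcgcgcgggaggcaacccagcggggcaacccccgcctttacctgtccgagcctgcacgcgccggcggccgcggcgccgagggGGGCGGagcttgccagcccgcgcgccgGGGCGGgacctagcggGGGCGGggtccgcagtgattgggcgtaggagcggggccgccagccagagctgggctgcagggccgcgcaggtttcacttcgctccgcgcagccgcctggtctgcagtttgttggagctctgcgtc
PMAIP1, chr18:59899746-59900045, plus strand: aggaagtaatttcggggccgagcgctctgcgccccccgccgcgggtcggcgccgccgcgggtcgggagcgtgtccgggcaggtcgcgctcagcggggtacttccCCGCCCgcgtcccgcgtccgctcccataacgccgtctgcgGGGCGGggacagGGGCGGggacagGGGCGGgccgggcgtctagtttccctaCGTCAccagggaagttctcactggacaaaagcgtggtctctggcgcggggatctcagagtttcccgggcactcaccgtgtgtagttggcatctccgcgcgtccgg
BCL2, chr18:63319720-63320019, minus strand: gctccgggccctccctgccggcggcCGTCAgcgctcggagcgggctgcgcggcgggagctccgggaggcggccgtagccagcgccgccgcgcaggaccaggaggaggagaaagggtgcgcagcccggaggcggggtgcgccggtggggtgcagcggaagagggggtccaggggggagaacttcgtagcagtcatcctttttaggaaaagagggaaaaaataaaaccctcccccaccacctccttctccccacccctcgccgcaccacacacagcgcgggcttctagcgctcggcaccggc

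The ATF4 composite element was searched as TGATGNAA and found in 3.62% of 35116 RefSeq promoters of this length. The FOXO element, searched as GTAAACA, was found in 3.42% of them. The GC box, searched as GGGCGG, was found in 45%. The CRE core, searched as TGACG, was found in 24.6%, and in BCL2L1 and BAX as well as in BCL2 and PMAIP1. BCL2A1 alone among the 8 promoters held the ATF4 element, 63 to 56 bases before the start, and BCL2L11 alone held the FOXO element. PMAIP1 held 4 GC boxes and BCL2L11 held 3. An AP-1 element (TGANTCA, 7.71% of promoters) was found in BBC3 and a p53 motif of 10 bases, shorter than a full p53 response element and searched by name (6.63%), in BAK1, while the NF-kB element, also searched by name (11.3%), was found in 0 of the 8. These matches describe letters in a window and were not tested against the RNA.

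The COPB2 shRNAs of the study have guide strands of 22 bases, shown here with bases 2 to 8 in capitals because these bases choose what the guide pairs with. The numbering of the designs was taken to be that of the sample labels.
COPB2.1: tTAAATATctttacaatgctgt
COPB2.2: tAATTGAAcactctaatctgca
The reverse complement of COPB2.1 matched bases 1323 to 1344 of the 3275-base COPB2 transcript and that of COPB2.2 matched bases 333 to 354. A full match to either was found in 0 of the 10 BCL2 family transcripts, and a site for bases 2 to 8 in 4 of them for COPB2.1 and in 2 for COPB2.2.

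Total counts ran from 13148194 to 23597310 per library, and 3 counts, taken as the floor, correspond to 0.110 to 0.271 CPM, the unit of level used here, in which counts are set relative to the library size after scaling with trimmed means of M values (TMM). The control shRNA left COPB2 at 267 to 620 CPM (14 libraries), and the COPB2 shRNAs brought it to 33.9 to 122 (28 libraries). CDKN1A, which encodes p21, was at 547 to 1221 CPM with DMSO and 2674 to 7332 with 4OHT, and at 320 to 937 with DMSO and 2045 to 4581 with bleomycin, without overlap. CDKN2A, which encodes p16, overlapped in both models (66.4 to 148 and 122 to 669, 48.3 to 93.3 and 42.2 to 131). LMNB1 (6.997 to 17.1 and 1.99 to 3.85, 6.95 to 12.8 and 1.10 to 3.01) was lower in both without overlap. So was MKI67, a gene of dividing cells (2.55 to 12.1 and 0 to 0.153, 3.69 to 7.79 and 0.0657 to 1.87). All 9 fibroblast markers were expressed (summed 11050 to 33310 CPM), and the summed epithelial (0.118 to 2.09), endothelial (7.43 to 35.96) and leukocyte markers (0.289 to 3.55) were low. Libraries differed in how gene levels followed the GC content of transcripts, with slopes from −0.42 to 0.71 log2 units per 10 points of GC. This moved with several members, since PMAIP1 has 36.7% GC, BAX 60.8% and BBC3 69.7%. The spread of PMAIP1 within groups (pooled SD of log2 CPM) was 0.826 before and 0.353 after removing the fit on GC and length. For BAX it was 0.424 and 0.133, and for BCL2L2 it rose from 0.203 to 0.350.

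**Figure D1:**
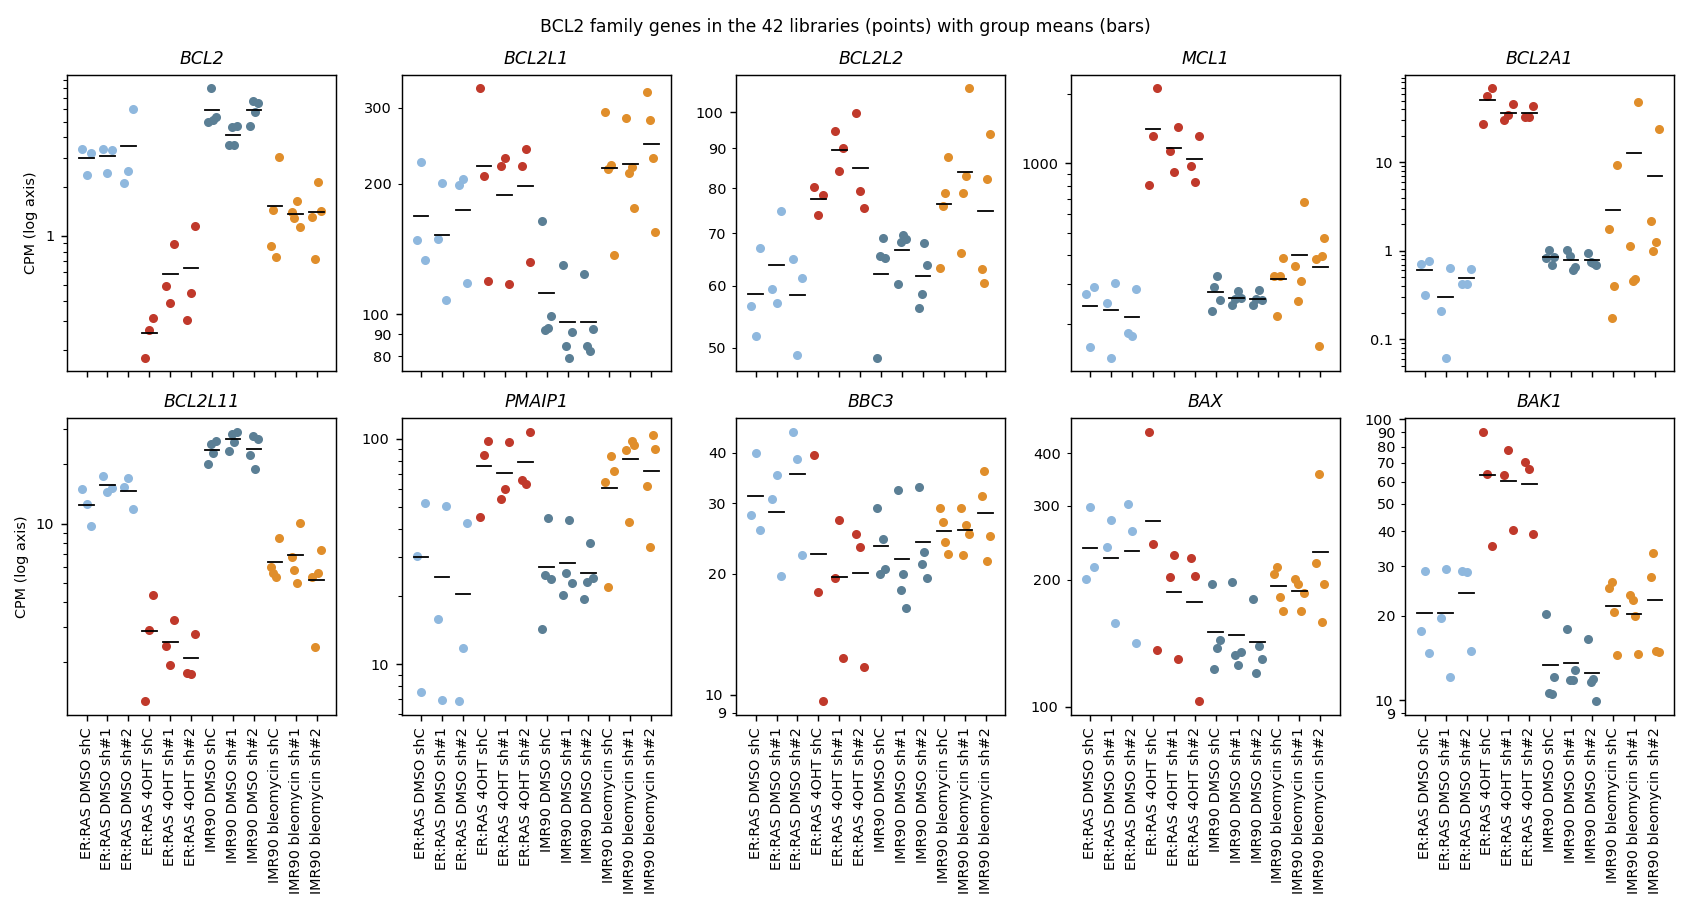
CPM on a log axis of the 10 genes in each of the 42 libraries (points, coloured by cell line and treatment) with the mean of each of the 12 groups (bars). BCL2A1 and MCL1 stand high in all 9 libraries of 4OHT-treated ER:RAS cells, and BCL2 and BCL2L11 stand low in both senescence models.

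In OIS with the control shRNA, MCL1, BCL2A1 and BAK1 were higher and BCL2 and BCL2L11 were lower than with DMSO. These were 5 of the 10 genes, where 35.7% of the 14297 genes tested passed (edgeR quasi-likelihood test, adjusted p under 0.05). The same 5 genes passed in the same direction with COPB2 shRNA #1 and with #2, where 36.9% of genes passed in each. The survival genes did not move together with the control shRNA: 2 of 5 rose, 1 fell and 2 did not pass. With the replicate number as a block over all ER:RAS libraries, 7 and 8 of the 10 passed with #1 and #2, where 53.2% and 53.1% of all genes did. The pairing by number was read from these same data and not from a label, which limits calls that rest on the block. In bulk RNA, fewer cells with a transcript and less of it per cell cannot be told apart.

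BCL2A1, a survival gene best known from blood cells and as an NF-kB target, had the largest change. It was at 0.713, 0.317 and 0.770 CPM in the 3 DMSO libraries and at 26.9, 56.5 and 69.3 in the 3 libraries with 4OHT. All 9 libraries with 4OHT, over the 3 shRNAs, lay at 26.9 CPM or above and all 9 with DMSO at 0.770 or below. The log2 fold change was 6.28 ± 0.63 (SE, n = 3 and 3, edgeR adjusted p = 1.66e-06), with 2246 counts against 35 over the libraries of each group. Leukocyte markers, summed, were at 0.289 to 1.15 CPM with DMSO and 1.13 to 2.90 with 4OHT; their part in this result was not tested.

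MCL1, whose short-lived protein binds NOXA and BIM, went from 271, 160 and 290 CPM to 802, 1318 and 2120. The groups did not overlap, and the log2 fold change was 2.47 ± 0.43 (SE, n = 3 and 3, edgeR adjusted p = 0.000345). Per kilobase of transcript it ranked below BAX and BCL2L1 with DMSO (60.8 ± 17.8 CPM per kb, SD, n = 3) and above all other members with 4OHT (358 ± 168). Its ranks beside BCL2L1 with DMSO (65.6 ± 19.03) and beside BAX with 4OHT (348 ± 201) lie within the spread.

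BCL2 moved the other way. Its 3 DMSO libraries held 3.41, 2.34 and 3.22 CPM and its 3 libraries with 4OHT held 0.181, 0.264 and 0.317, which are 2, 4 and 5 counts. The groups did not overlap, and the log2 fold change was −3.59 ± 0.60 (SE, n = 3 and 3, edgeR adjusted p = 0.000223). Summed over libraries, 11 counts stood against 171, a ratio of 0.0861 with a 95% interval of 0.0422 to 0.158 that covers counting error only.

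BCL2L1, the survival gene with the highest level per kilobase among the 5 with DMSO, was at 148, 225 and 133 CPM with DMSO and at 333, 208 and 119 with 4OHT. The groups overlapped fully, and the log2 fold change was 0.28 (95% interval −0.46 to 1.01, edgeR adjusted p = 0.587). The highest value of each group came from the library with the steepest GC slope, 0.71 and 0.69. BCL2L2 was at 51.8 to 67.1 CPM with DMSO and 74.0 to 80.2 with 4OHT. Its groups did not overlap, yet its log2 fold change of 0.30 did not pass (edgeR adjusted p = 0.264), and with COPB2 shRNA #1 and #2 it was 0.41 and 0.46 (edgeR adjusted p = 0.121 and 0.0836). With the replicate block these changes, 0.42 and 0.47, passed (edgeR adjusted p = 0.0221 and 0.0116).

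Of the BH3-only genes, BCL2L11 fell. BIM, its product, is the member that ERK signalling marks for degradation and FOXO factors induce. It was at 14.9, 12.5 and 9.72 CPM with DMSO and at 1.26, 2.91 and 4.37 with 4OHT, without overlap (log2 fold change −2.18 ± 0.40, SE, n = 3 and 3, edgeR adjusted p = 0.000465). With COPB2 shRNA #1 and #2 the change was −2.69 and −2.86.

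PMAIP1, a p53 and ATF4 target, was at 30.2, 7.54 and 51.8 CPM with DMSO and at 44.9, 84.9 and 97.4 with 4OHT. Its groups overlapped, and the log2 fold change was 1.22 ± 0.80 (SE, n = 3 and 3, edgeR adjusted p = 0.268). With COPB2 shRNA #1 and #2 the groups did not overlap, and changes of 1.42 and 1.85 did not pass (edgeR adjusted p = 0.191 and 0.0908). With the replicate block they were 1.76 and 2.17 and passed (edgeR adjusted p = 0.00884 and 0.00243). BBC3, also a p53 target, was at 28.02, 39.98 and 25.7 CPM with DMSO and at 39.4, 17.98 and 9.63 with 4OHT. One 4OHT library lay within the DMSO range and 2 lay below it, and the log2 fold change was −0.60 ± 0.43 (SE, n = 3 and 3, edgeR adjusted p = 0.312). With the replicate block it was −0.64 with #1 and −0.91 with #2 (edgeR adjusted p = 0.0613 and 0.0112), of which the second passed.

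The effector genes parted. BAK1 was at 17.7, 28.9 and 14.8 CPM with DMSO and at 90.5, 64.0 and 35.4 with 4OHT, without overlap (log2 fold change 1.53 ± 0.39, SE, n = 3 and 3, edgeR adjusted p = 0.00574). With #2 its change was 1.21 (edgeR adjusted p = 0.0213), and that call was lost without DMSO replicate 3 or 4OHT replicate 1 or 2 (1.02 to 1.18). BAX was at 201, 298 and 214 CPM with DMSO and at 450, 243 and 136 with 4OHT. It overlapped, and its log2 fold change was 0.10 (edgeR adjusted p = 0.873) with the control shRNA, −0.35 with COPB2 shRNA #1 and −0.48 with #2. Groups did not overlap for 6, 7 and 7 of the 10 genes with the 3 shRNAs, where 38.5%, 46.5% and 46.2% of all genes tested did not overlap.

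A fit with offsets for GC content and length called 8, 9 and 8 of the 10 genes in OIS, against 53.6%, 55.2% and 54.7% of all genes tested. The 5 genes above were among them in each. PMAIP1 then passed as higher with all 3 shRNAs (log2 fold change 1.16, 1.17 and 1.42), and BBC3 (−0.99, −0.72 and −0.84) and BAX (−0.43, −0.64 and −0.62) passed as lower. With the block and the offsets together all 10 genes passed with #1 and with #2, where 65.6% and 65.5% of all genes did.

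**Figure D2:**
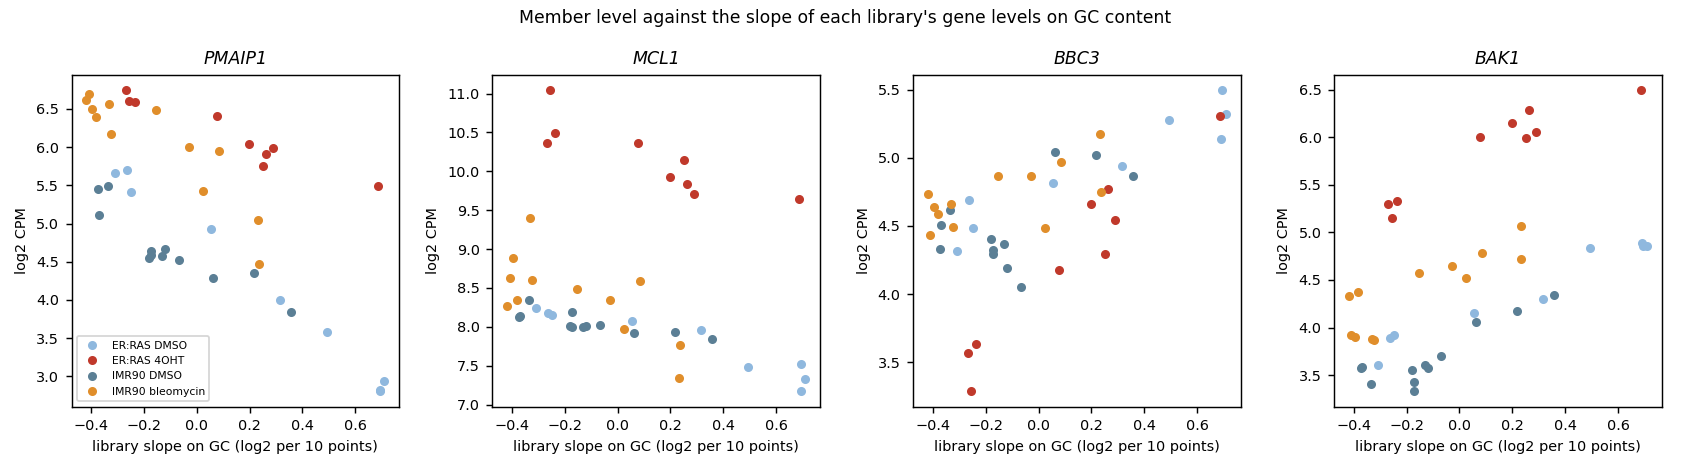
The log2 CPM of PMAIP1, MCL1, BBC3 and BAK1 in each library (points, coloured by cell line and treatment) against the slope of that library's gene levels on GC content. PMAIP1 and MCL1 fall and BBC3 and BAK1 rise with the slope, and MCL1 and BAK1 of 4OHT-treated cells lie above those of DMSO-treated cells at like slopes.

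**Figure D3:**
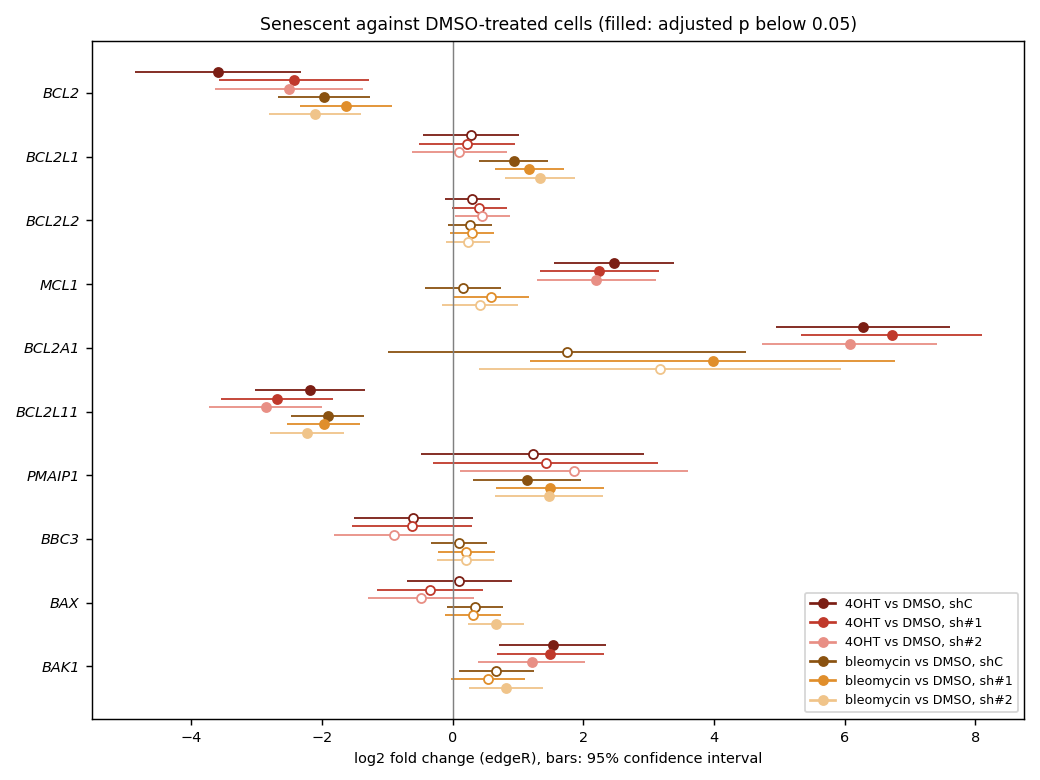
The log2 fold change of each gene in senescent against DMSO-treated cells in the fit without offsets (points, filled where the adjusted p is under 0.05; bars, 95% confidence interval), for 4OHT (reds) and bleomycin (browns) with each of the 3 shRNAs. BCL2 and BCL2L11 lie below 0 in all 6 comparisons, and MCL1 passed only with 4OHT.

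In bleomycin-induced senescence with the control shRNA, BCL2L1 and PMAIP1 were higher and BCL2 and BCL2L11 lower than with DMSO. These were 4 of the 10 genes, where 31.2% of 14783 genes tested passed. With COPB2 shRNA #1 and #2, 5 and 6 of the 10 passed, where 35.2% and 40% of genes did, and the 4 genes were among them each time. Groups did not overlap for 2, 3 and 4 of the 10 genes, where 28%, 35.4% and 30.8% of all genes tested did not.

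BCL2L1 was at 164, 91.9, 93.0 and 99.1 CPM with DMSO and at 294, 217, 221 and 137 with bleomycin. A single bleomycin library lay within the DMSO range, and the log2 fold change was 0.93 ± 0.26 (SE, n = 4 and 4, edgeR adjusted p = 0.00774). With COPB2 shRNA #1 and #2 the groups did not overlap, at 1.18 and 1.33. BCL2 was at 4.97, 8.03, 5.09 and 5.32 CPM with DMSO and at 0.862, 1.43, 0.748 and 3.06 with bleomycin, without overlap. Its log2 fold change was −1.97 ± 0.34 (SE, n = 4 and 4, edgeR adjusted p = 0.000117), from 463 counts to 115 over the libraries.

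MCL1, which rose in OIS, was at 229, 292, 326 and 255 CPM with DMSO and at 326, 217, 324 and 387 with bleomycin, and the groups overlapped. Its log2 fold change was 0.16 (95% interval −0.43 to 0.74, edgeR adjusted p = 0.728), and 0.58 and 0.42 with the COPB2 shRNAs, which did not pass. BCL2L2 did not pass either, at 0.26, 0.29 and 0.24.

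BCL2A1 was uneven in bleomycin-treated cells. With the control shRNA it was at 0.685 to 1.01 CPM in the DMSO libraries and at 1.77, 0.172, 0.403 and 9.28 with bleomycin. With shRNA #1 the bleomycin libraries held 1.13, 0.461, 0.478 and 48.7 CPM, and with #2 they held 2.18, 0.986, 1.26 and 23.9. The libraries numbered 4 are thus high with each shRNA, and the other 9 stay at 2.18 or below. The log2 fold changes were 1.75, 3.98 and 3.18 (edgeR adjusted p = 0.348, 0.0248 and 0.0625), and without the 3 libraries numbered 4 they were −0.06, −0.24 and 0.92, none of which passed. The call with #1 was also lost without DMSO replicate 2, 3 or 4. Leukocyte markers, summed, were at 0.292 to 0.930 CPM with DMSO and 1.59 to 3.55 with bleomycin, and their part was not tested.

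BCL2L11 was at 20.1, 25.1, 22.7 and 26.01 CPM with DMSO and at 6.03, 5.62, 5.35 and 8.45 with bleomycin, without overlap. Its log2 fold change was −1.91 ± 0.27 (SE, n = 4 and 4, edgeR adjusted p = 1.35e-05), and −1.98 and −2.23 with the COPB2 shRNAs. PMAIP1 was at 14.3, 24.8, 44.7 and 23.8 CPM with DMSO and at 64.2, 22.02, 84.0 and 72.0 with bleomycin. One bleomycin library lay within the DMSO range, and the log2 fold change was 1.14 ± 0.40 (SE, n = 4 and 4, edgeR adjusted p = 0.0329). That call was kept only without DMSO replicate 3 or bleomycin replicate 2 and lost without any 1 of the other 6 libraries (log2 fold change 0.93 to 1.49 over the 8), while the changes with shRNA #1 and #2 were 1.49 and 1.48 (edgeR adjusted p = 0.00556 and 0.00551). BBC3 was at 19.9 to 29.1 CPM with DMSO and 22.4 to 29.1 with bleomycin (log2 fold change 0.10, 95% interval −0.34 to 0.53, edgeR adjusted p = 0.781).

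BAX was at 195, 123, 138 and 144 CPM with DMSO and at 207, 214, 182 and 169 with bleomycin, and BAK1 at 20.2, 10.6, 10.5 and 12.1 and at 25, 26.3, 20.7 and 14.5. Both overlapped through the first DMSO library, the one with the steepest GC slope of its group (0.36). Their log2 fold changes were 0.34 and 0.67 (edgeR adjusted p = 0.239 and 0.0696). With shRNA #2 both passed, at 0.66 and 0.82 (edgeR adjusted p = 0.0136 and 0.0222). The call of BAX was lost without bleomycin replicate 2 (0.42), and that of BAK1 without DMSO replicate 2 or 4 or bleomycin replicate 1 or 2 (0.61 to 0.81). With offsets for GC content and length both passed with the control shRNA, at 0.27 and 0.68, among 6 of the 10 genes, where 46.2% of all genes passed. With #1 and #2, 8 and 5 of the 10 passed in that fit, where 50.2% and 53% of all genes did, and BAX with #2 (0.17) no longer passed.

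The difference between the OIS and bleomycin responses, tested itself with the control shRNA, passed for MCL1 alone of the 10 genes, where 20.3% of 15299 genes tested passed. The log2 fold change of MCL1 was larger in OIS by 2.37 ± 0.47 (SE, edgeR adjusted p = 0.000291). For BCL2A1 the difference was 4.58 ± 1.69 (edgeR adjusted p = 0.0506) and for BCL2 −1.56 ± 0.64 (edgeR adjusted p = 0.0824), which did not pass. For BCL2L11 it was −0.22, with a 95% interval of −1.08 to 0.64. With offsets for GC content and length, 7 of the 10 passed, where 35.1% of all genes did. Among them BCL2, BBC3 (−1.17), BCL2L1 (−0.69) and BAX (−0.60) were relatively lower and MCL1, BCL2A1 and BAK1 (0.79) relatively higher in OIS. BCL2A1 also passed as relatively higher in OIS under the other alternatives described below, except with all genes kept. With single libraries left out it passed only without 4OHT replicate 1 or bleomycin replicate 4.

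Between ER:RAS and IMR90 cells with DMSO and the control shRNA, 0 of the 10 genes passed, where 0.346% of all genes did (edgeR), and 3 had an unadjusted p under 0.05, as had 1763 of the 15299 genes tested. Those 3 were BCL2 (log2 fold change −0.96), BCL2L11 (−0.92) and BAX (0.66), whose libraries also did not overlap, as for 12.7% of all genes.

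The balance of the family was taken per library as the mean log2 CPM of the 5 survival genes minus that of the 3 BH3-only genes, a difference in which the scaling of the library cancels. It is a description without a test. With the control shRNA it was 0.0659 ± 0.122 (SD, n = 3) in ER:RAS cells with DMSO and 1.73 ± 0.0675 with 4OHT. The groups did not overlap with any of the 3 shRNAs, and the balance was higher with 4OHT by 1.67, 1.94 and 1.74. In IMR90 cells it was 0.0750 ± 0.244 (SD, n = 4) with DMSO and 0.244 ± 0.433 with bleomycin, with overlap. The differences were 0.169, 0.411 and 0.535, and only with shRNA #2 did the groups not overlap. The first of these was −0.0235 without bleomycin replicate 4, 0.326 without bleomycin replicate 3 and 0.0571 without DMSO replicate 3, and the second was 0.157 without bleomycin replicate 4. Without BCL2A1 the OIS differences were 0.446, 0.644 and 0.596, still without overlap, and the bleomycin differences were 0.0548, 0.183 and 0.175, with overlap.

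**Figure D4:**
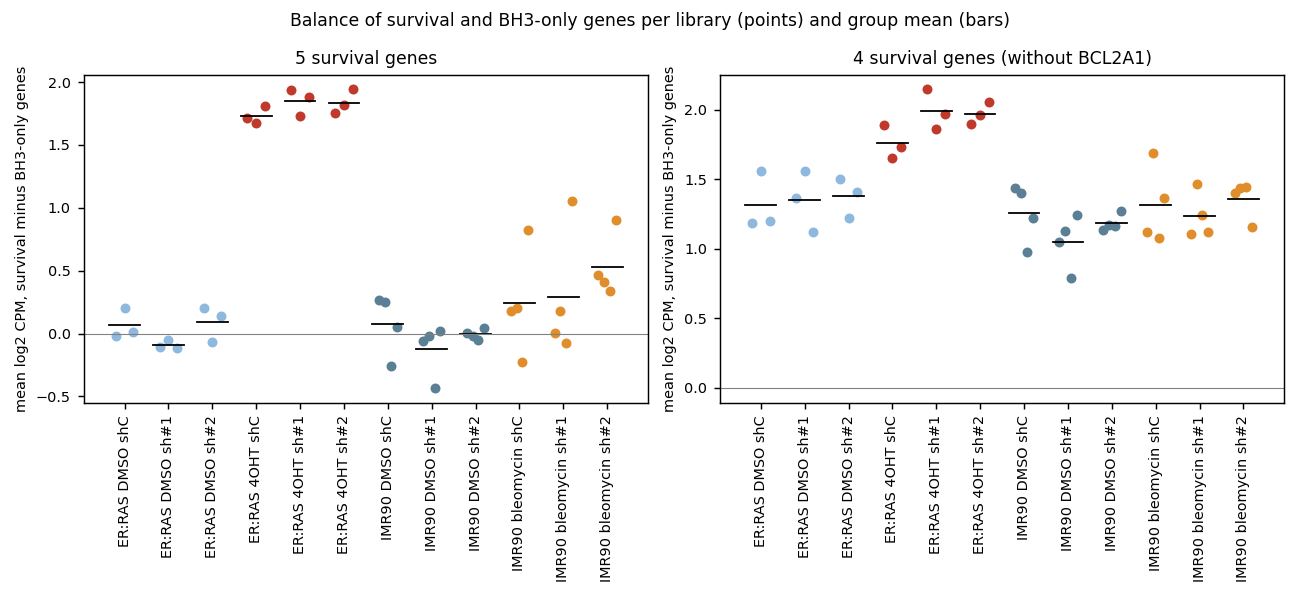
Mean log2 CPM of the survival genes minus that of the BH3-only genes in each library (points) and group (bars), with all 5 survival genes (left) and without BCL2A1 (right). The 9 libraries of 4OHT-treated cells lie above all others in the left panel, and the difference from DMSO is smaller in the right panel.

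Ratios of single pairs of genes were described in the same way. The log2 ratio of BCL2L1 to BBC3 was higher in OIS by 0.99, 0.85 and 1.01 and in bleomycin-treated cells by 0.82, 0.93 and 1.10, without overlap in all 6 comparisons. That of BCL2L1 to BCL2L11 was higher by 2.52, 2.90 and 2.95 in OIS and by 2.83, 3.19 and 3.61 with bleomycin, also without overlap. Within groups the first ratio had an SD of 0.0610 to 0.366. The ratio of MCL1 to PMAIP1, its own BH3-only partner, changed by 0.84, 0.44 and −0.05 in OIS and by −0.95, −1.01 and −1.07 with bleomycin. Its groups overlapped in 5 of the 6 comparisons. Within the survival genes, the ratio of BCL2 to BCL2L1 was lower by 3.39, 2.52 and 2.48 in OIS and by 2.99, 2.74 and 3.41 with bleomycin, without overlap. The SD within groups was 0.133 to 0.992 for MCL1 to PMAIP1 and 0.243 to 1.28 for BCL2 to BCL2L1.

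Levels can be ordered per kilobase of transcript. With the control shRNA, BAX was highest in ER:RAS cells with DMSO (299 ± 66.4 CPM per kb, SD, n = 3), followed by BCL2L1 (65.6 ± 19.03) and MCL1 (60.8 ± 17.8), which lie within each other's spread. With 4OHT the order was MCL1 (358 ± 168), BAX (348 ± 201), BCL2L1 (85.5 ± 41.7) and BCL2A1 (65.2 ± 27.9), where MCL1 and BAX do not differ beyond their spread. In IMR90 cells BAX led with DMSO (189 ± 39.5, n = 4) and with bleomycin (243 ± 26.8). BCL2L1 stood below MCL1 with DMSO (43.5 ± 13.6 and 69.7 ± 10.7), and with bleomycin the 2 lay within each other's spread (84.4 ± 24.9 and 79.4 ± 17.9). BCL2 was last in all 4, at 0.0369 to 0.850 CPM per kb.

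COPB2 shRNA left no change that passed in any of the 10 genes. In each of the 8 comparisons of a COPB2 shRNA with the control shRNA, 0 of the 10 passed and 0 had an unadjusted p under 0.05 in edgeR, and 0 passed with the Wald test of DESeq2. Of all genes, for #1 and #2 in turn, 0.00699% and 0.00699% passed in ER:RAS cells with DMSO, 0.14% and 0.224% with 4OHT, 0.00676% and 0.00676% in IMR90 cells with DMSO, and 0.00676% and 0.0744% with bleomycin. Over the 8 comparisons, 116 to 997 genes had an unadjusted p under 0.05. Libraries did not overlap for 2 members with 4OHT and #1 and for 1 member in IMR90 cells with DMSO and #1, and overlapped for all 10 in the other 6. The share of all genes without overlap was 3.97% and 3.11% in ER:RAS cells with DMSO, 6.36% and 7.83% with 4OHT, 1.68% and 1.54% in IMR90 cells with DMSO, and 1.21% and 1.89% with bleomycin. The test of a different response in senescent and DMSO-treated cells passed for 0 of the 10 and for 0 of all genes, with 121 to 285 genes at an unadjusted p under 0.05.

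In 4OHT-treated ER:RAS cells MCL1 was at 802, 1318 and 2120 CPM with the control shRNA, at 1128, 912 and 1437 with #1 and at 970, 833 and 1318 with #2. All 3 groups overlap, and the log2 fold changes were −0.31 (95% interval −1.18 to 0.57) and −0.46 (−1.34 to 0.41). BCL2L1 changed by −0.23 (−0.96 to 0.51) and −0.16 (−0.90 to 0.57). BAX was at 450, 243 and 136 CPM with the control shRNA, at 203, 229 and 130 with #1 and at 226, 204 and 103 with #2, with log2 fold changes of −0.56 and −0.65 (95% intervals −1.37 to 0.25 and −1.45 to 0.16). The lower bounds of these intervals lie between −0.90 and −1.45.

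BCL2 was the gene that came nearest in those cells, with log2 fold changes of 1.17 and 1.31 (unadjusted p = 0.0852 and 0.0546). It was at 0.181, 0.264 and 0.317 CPM with the control shRNA, 0.492, 0.387 and 0.888 with #1, and 0.305, 0.447 and 1.16 with #2. These rest on 11, 28 and 32 counts over 3 libraries each, and replicate 3 was the highest of each group. The 2 members without overlap with #1 were BCL2 and BCL2L2 (log2 fold change 0.20). In bleomycin-treated cells the largest values were those of BCL2A1, 2.14 and 1.31, which follow the libraries numbered 4. With DMSO, the largest were BCL2A1 (−0.94) and PMAIP1 (−0.58) in ER:RAS cells and BCL2 (−0.49, without overlap) and BCL2L1 (−0.21) in IMR90 cells, for shRNA #1 and #2 in turn.

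**Figure D5:**
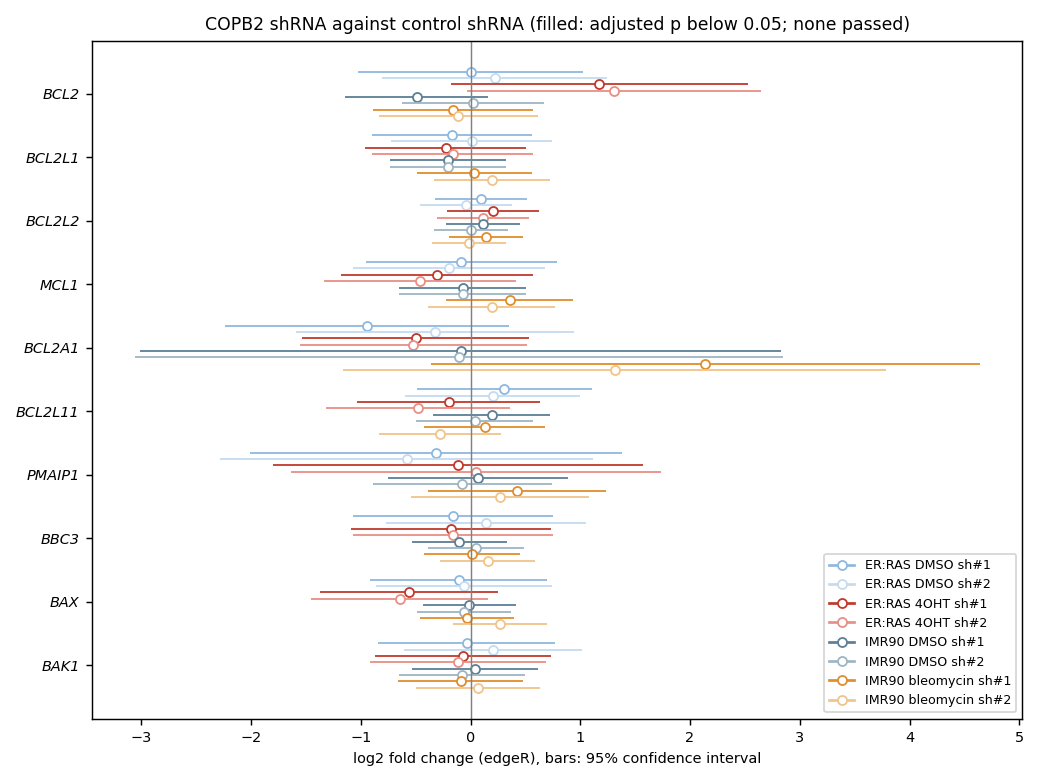
The log2 fold change of each gene with COPB2 shRNA #1 or #2 against the control shRNA in the 4 cell states (open points, since none had an adjusted p under 0.05; bars, 95% confidence interval). Most points lie within 0.5 of 0, and BCL2 in 4OHT-treated and BCL2A1 in bleomycin-treated cells lie farthest to the right.

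The balance after COPB2 shRNA differed from the control shRNA by 0.116 and 0.104 in 4OHT-treated cells and by 0.0456 and 0.286 in bleomycin-treated cells, with overlap in all 4. In DMSO-treated cells it differed by −0.157 and 0.0262 (ER:RAS) and −0.196 and −0.0801 (IMR90), and only the first did not overlap. The values in bleomycin-treated cells rest on single libraries. That of #1 was −0.208 to 0.238 with each library left out in turn, below 0 without control replicate 3 or #1 replicate 4. That of #2 was 0.128 without control replicate 3, 0.160 without #2 replicate 4 and 0.478 without control replicate 4. Without BCL2A1 the balance with 4OHT was higher by 0.233 (#1, with overlap) and 0.214 (#2, without). With bleomycin it differed by −0.0790 and 0.0469, with overlap. The log2 ratio of MCL1 to PMAIP1 changed by −0.118 and −0.450 with 4OHT and by −0.239 and −0.190 with bleomycin. Only with 4OHT and #2 did its groups not overlap. For the other ratios above, groups overlapped in both senescent states.

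Some genes known to act upstream of the family passed with COPB2 shRNA, and no link to the members was tested. Of 10 ATF4 and CHOP target genes, among them known inducers of PMAIP1 and BBC3, DDIT3 (which encodes CHOP) and ATF3 rose with both COPB2 shRNAs in 4OHT-treated cells. DDIT3 rose by 2.49 and 2.59 log2 units (edgeR adjusted p = 0.00822 and 0.00471) and ATF3 by 1.65 and 1.81 (0.00461 and 0.00254), and ATF4 rose with #2 (1.25, edgeR adjusted p = 0.0304). In bleomycin-treated cells DDIT3 (1.17, edgeR adjusted p = 0.00241) and ATF4 (0.86, 0.041) rose with #2, and with #1 none of the 10 passed. In fits of only the 2 groups compared these calls were lost: 0 of all genes passed with 4OHT and #1 or #2, and 1 of all genes, a lower one, passed with bleomycin and #2. The calls of ATF4 were also lost without any 1 library other than control replicate 1 (4OHT) or control replicate 2 (bleomycin), and that of DDIT3 with 4OHT and #1 without control replicate 2 or 3. PMAIP1 in the same 4 comparisons was at −0.12, 0.05, 0.42 and 0.27, and BBC3 at −0.18, −0.16, 0.01 and 0.16. Of the p53, NF-kB, ERK and mitochondrial lists described next, 0 genes passed with either COPB2 shRNA in senescent cells.

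Other genes with BCL2 homology were 10, of which BCL2L13, BOK, BID, BAD and BMF were tested and BCL2L10, BCL2L14, BCL2L15, BIK and HRK did not pass the filter on low counts. BID, the BH3-only link to death receptors, rose in OIS (log2 fold change 1.97 ± 0.34, SE, edgeR adjusted p = 0.00028) and with bleomycin (1.00 ± 0.19, edgeR adjusted p = 0.000367). BMF, a BH3-only gene tied to loss of attachment, fell in both, by 0.97 and 2.37 log2 units (edgeR adjusted p = 0.00124 and 4.25e-06). BOK, an effector relative, fell with bleomycin (−0.83, edgeR adjusted p = 0.015). The BH3-only genes BCL2L11 and BMF thus fell in both models, and BID rose in both.

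Of 16 genes of the mitochondrial apoptosis machinery, all tested, 2 rose and 3 fell in OIS, and 3 rose and 2 fell with bleomycin. These are 5 of 16 in each, where 35.7% and 31.2% of all genes passed. VDAC1, an outer membrane channel, rose in both (0.96 and 0.64), and CASP6, an executioner caspase (−1.54 and −0.74), and BIRC5 (−5.89 and −2.42) fell in both. BIRC5, survivin, is also a gene of dividing cells. HTRA2, a mitochondrial protease, rose in OIS (1.27), and CYCS, cytochrome c, rose with bleomycin (0.80). The median of the list was 0.48 in OIS, beside −0.08 over all genes tested, and 0.14 with bleomycin, beside −0.01.

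The lists of upstream genes are read beside the 35.7% (OIS) and 31.2% (bleomycin) of all genes that passed. Of 15 p53 target genes, 12 rose and 0 fell with bleomycin, with a median log2 fold change of 0.93, and 3 rose and 2 fell in OIS, with a median of −0.19. The 3 that rose in OIS, TNFRSF10B, CDKN1A and GDF15, also rose with bleomycin. The 2 that fell in OIS, XPC and SESN1, rose with bleomycin. FAS, MDM2 and FDXR rose with bleomycin by 1.86, 1.42 and 1.63, and in OIS had values of −1.21, −0.66 and 0.61 that did not pass. With offsets for GC content and length, 13 rose and 0 fell with bleomycin, where 46.2% of all genes passed in that fit. In OIS 4 rose and 6 fell, where 53.6% of all genes passed. Of 10 NF-kB target genes, 9 rose in OIS (median 1.71), IL6 by 3.94 and CXCL8 by 9.61, and 2 rose with bleomycin (median 0.66). Of 10 ERK feedback genes, 8 rose in OIS (median 2.85), DUSP6 by 3.30 and SPRY2 by 3.34, and 6 rose with bleomycin (median 1.02), DUSP6 by 2.195. IER3 is in both of the last lists. In the test of the difference between the OIS and bleomycin responses, where 20.3% of all genes passed, 0 p53 targets were relatively higher in OIS and 4 of 15 lower, among them FAS and MDM2. Of the NF-kB targets 3 of 10 were relatively higher and 0 lower, and of the ERK feedback genes 7 of 10 and 0.

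Across the 12 groups the members with the widest range of mean log2 CPM were BCL2A1 (7.10), BCL2 (4.05) and BCL2L11 (3.64), against 0.62 for BCL2L2. The genes most like each in their 12 group means were found by Pearson's r over the 15298 other genes tested, as a description. MCL1 was the second of all genes for BCL2A1 (r = 0.989), after MAPKAPK5 (0.993) and before PTPRE (0.988). For MCL1 they were MYO1D, LOC100507065 and LYPLA1 (0.994 each), for BCL2 PRTFDC1 (0.995), SMPDL3A (0.991) and FAM118A (0.991), and for BCL2L11 TFDP2, DDX17 (0.996 each) and DPYD (0.995). The 12 means share libraries, 4 cell states and their GC content, and with a prior count of 0.5 only MAPKAPK5 remained among the 3 for BCL2A1.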

How the data were processed

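Poly(A) RNA of 42 libraries was analysed. The deposited table holds raw counts per gene symbol, whole numbers with no normalization, made by the authors from single-end reads. The submitters' processing notes name hg38, DRAGEN, STAR 2.7.8a and DESeq2 1.32.0, whereas the study's methods name Tophat, HTSeq and hg19, and which of them made the table is not given in the sources used here. The strand setting of the counting is not given either, so that genes overlapping on opposite strands may share reads. Replicate pairs differed beyond sampling noise (chi-square per degree of freedom 6.89 to 307 in 54 pairs), and each library counted once. Depth was 13148194 to 23597310 counts. Reads carry no molecular identifiers, so intervals of counts and floors cover counting error only.

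Groups came from the labels. Counts were filtered (filterByExpr), scaled (TMM) and tested with the robust, two-sided quasi-likelihood test of edgeR 4.0.16 in R 4.3.3, with Benjamini-Hochberg adjustment over all genes tested and a threshold of 0.05. The 6 groups of a line shared a fit, and both comparisons across lines used a fit of all 42 libraries. There were 20 contrasts. The SE is the absolute log2 fold change over the square root of the F statistic, and 95% intervals use the t distribution with the fit's degrees of freedom. Log2 CPM carry a prior count of 2.

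The 10 members and the gene lists were chosen with earlier results of these data known. All members are named, and of the other lists, genes that passed the test may be named with their values; FAS, MDM2 and FDXR are given in OIS because they passed with bleomycin. Transcript length and GC content came from GENCODE v44lift37 and positions and promoters from RefSeq (GRCh38.p14). Of the 28266 symbols, 25055 had a length and GC content.

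Alternatives were DESeq2 size factors, all genes kept whatever their counts, DESeq2 1.42.0 with its Wald test, fits restricted to the groups of each contrast, offsets from a smooth fit of each library's gene levels on GC content and length, the replicate number as a block, both together, and each library left out in turn. Leaving out all 3 bleomycin libraries numbered 4 was added after seeing the data. Same-numbered libraries were paired where the correlation of their deviations from the group means was over 0.1 in every pair. This held for the 4 knockdown comparisons in IMR90 cells (lowest correlation 0.106) and for OIS with COPB2 shRNA #1 (0.405) and #2 (0.459), where it is a pattern in the data and no label says what a number stands for. It did not hold for the knockdown comparisons in ER:RAS cells, OIS with the control shRNA or any bleomycin comparison. In OIS with #1 and #2, libraries of different numbers correlated by up to 0.517 and 0.498, above the lowest value of same-numbered ones. The block was fitted to all groups of a line together, including those where the rule did not hold.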

Additional observations from a re-analysis of the deposited data

Results flagged for a closer look

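In 8 of 66 groups of 4 libraries a library stood far from the other 3 (gap over range, Dixon's test at 95%), where chance alone would give 3.3. In IMR90 cells with DMSO and the control shRNA, BCL2 was at 8.03 CPM in replicate 2 (next value 5.32), BCL2L1 at 164 CPM in replicate 1 (99.1) and BAK1 at 20.2 CPM in replicate 1 (12.1). With DMSO and COPB2 shRNA #1, BCL2L2 was at 60.3 CPM in replicate 1 (68.3) and BAX at 197.6 CPM in replicate 1 (135.1). Replicate 1 had the highest GC slope of both groups, 0.358 and 0.218, and the part of that slope in these values was not tested library by library.

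With bleomycin, BCL2A1 was at 48.7 CPM in replicate 4 with COPB2 shRNA #1 (next value 1.13) and at 23.9 CPM in replicate 4 with #2 (2.18). MKI67, a gene of dividing cells, was at 1.503 and 0.903 CPM in these libraries, where the other bleomycin libraries with a COPB2 shRNA held 0.0657 to 0.923; its part in these values was not tested. PMAIP1 was at 42.8 CPM in replicate 2 with COPB2 shRNA #1 (89.3).

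The senescence response of MCL1 with the control shRNA differed between the models in a test of the difference itself, by 2.37 log2 units.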

How the results depend on the processing

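Over the alternatives other than leaving out single libraries, 220 of 233 values of members that passed stayed past the threshold in the same direction, 12 no longer passed and 1 changed sign. Of 353 values that had not passed, 73 then passed and 7 changed sign. BCL2, MCL1, BCL2A1, BCL2L11 and BAK1 in OIS with the control shRNA and BCL2, BCL2L1 and BCL2L11 with bleomycin kept their call under each alternative run, and in the knockdown comparisons 0 of the 10 passed under each.

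With offsets for GC content and length, 8, 9 and 8 members passed in OIS (control shRNA, #1, #2), 8 with bleomycin and #1, and 7 in the difference between models. The shares of all genes were 53.6%, 55.2% and 54.7%, 50.2%, and 35.1% in turn. BAX in OIS turned to −0.43 and BBC3 with bleomycin and #2 to −0.026. With the replicate number as a block, 7, 7 and 8 members passed in OIS, 5, 6 and 6 with bleomycin, 5 in the difference between models and 2 between the lines, and BAX in OIS was −0.025. Of all genes, 50.9%, 53.2% and 53.1% then passed in OIS and 40.9%, 44.9% and 50.5% with bleomycin. In the difference 30.8% of all genes passed. Between the lines 3.88% did, which are 593 genes beside 53 without the block. The 2 between the lines were BCL2L1 (higher) and BCL2L11 (lower). The numbers pair the libraries of OIS with #1 and #2 and of the IMR90 knockdown comparisons, where 0 of the 10 passed under the block, and libraries share only a number in the others. In the IMR90 knockdown comparisons the block moved the count of all genes called from 1 to 2 (DMSO and #2), 1 to 3 (bleomycin and #1) and 11 to 28 (bleomycin and #2). With the block and the offsets together, 9, 10 and 10 passed in OIS, 8 with bleomycin and #1, 7 in the difference and 1 between the lines, with BAX in OIS at −0.42 and BBC3 with bleomycin and #2 at −0.037. The shares of all genes were 63.9%, 65.6% and 65.5%, 55.5%, 42.6% and 5.12% in turn. In the difference between models, 2 members, MCL1 and BCL2A1, passed with DESeq2 size factors, with only the libraries compared, with the DESeq2 Wald test and without the bleomycin libraries numbered 4. There 20.2%, 14.3%, 22.7% and 19.5% of all genes passed. Without those libraries BCL2A1 was −0.058 and −0.24 with bleomycin (control shRNA, #1) and −0.27 for #1 in bleomycin-treated cells. DESeq2 size factors moved the median of all genes in OIS with the control shRNA from −0.08 to 0.04 and the share of higher calls from 43.4% to 49.3%. With only the libraries compared, genes called fell from 5098 to 2911 in OIS with the control shRNA, from 5915 to 3734 with bleomycin and #2, and from 20 and 32 to 0 in 4OHT-treated cells with #1 and #2. After knockdown in senescent cells, DDIT3 did not pass with offsets for GC content and length. ATF4 with #2 did not pass with all genes kept in either senescent state, with DESeq2 size factors with 4OHT, or with the offsets or without the libraries numbered 4 with bleomycin.

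The balance without BCL2A1 differed by 0.446, 0.644 and 0.596 in OIS, 0.175 with bleomycin and #2, 0.034 for #1 in ER:RAS cells with DMSO, and 0.233 and 0.214 for #1 and #2 with 4OHT. Of these knockdown values only the last was without overlap. With a prior count of 0.5 the balance difference of all 5 survival genes was 2.02 in OIS with #1. With single libraries left out the knockdown difference was −0.199 to −0.0871 and −0.0297 to 0.105 in ER:RAS cells with DMSO (#1, #2), 0.0704 to 0.177 and 0.0516 to 0.147 with 4OHT, and −0.308 to −0.0924 and −0.192 to −0.0176 in IMR90 cells with DMSO.

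Leaving out each library in turn gave −0.077 to 0.62 for BCL2L1 and −0.37 to 0.48 for BAX in OIS with the control shRNA, both below 0 without 4OHT replicate 1. BCL2L1 in OIS with #2 was −0.050 to 0.35 (below 0 without DMSO replicate 3). BCL2A1 with bleomycin was −0.061 to 2.14 (control shRNA) and −0.25 to 4.38 (#1), and its knockdown change in bleomycin-treated cells −2.09 to 3.94 (#1) and −0.94 to 3.13 (#2), each with a replicate 4 deciding the sign. PMAIP1 with #2 in ER:RAS cells with DMSO was −1.75 to 0.12 and BCL2L1 with #2 in IMR90 cells with DMSO −0.34 to 0.018. In the difference between models BCL2L11 was −0.66 to 0.12, PMAIP1 −0.28 to 0.84 and BAX −0.69 to 0.18, with 1 to 3 members called. The call of BAK1 in OIS with #2 was lost without DMSO replicate 3 or 4OHT replicate 1 or 2, and its call with bleomycin and #2 without DMSO replicate 2 or 4 or bleomycin replicate 1 or 2. BAX with bleomycin and #2 was lost without bleomycin replicate 2. PMAIP1 with bleomycin and the control shRNA kept its call only without DMSO replicate 3 or bleomycin replicate 2.

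Depth limits BCL2 in 4OHT-treated cells (2 to 21 counts a library) and BCL2A1 with DMSO (1 to 24 counts).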
